A study of Mus musculus with 4 samples.

Results

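Tetraspanins are membrane proteins that cross the membrane several times and gather other proteins, such as integrins, receptors and proteases, into patches of the cell surface and of endosomes. Several of them guide the traffic or the activity of their partners, and Cd63 of the endosome route is known in melanocytes for sorting the melanosomal protein Pmel. The subgroup called TspanC8 carries extra cysteines in its large extracellular loop and escorts the protease ADAM10, which sheds the outer parts of membrane proteins such as Notch receptors and cadherins.

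The genes described here were chosen by symbol, as those named Tspan with a number plus Cd9, Cd37, Cd53, Cd63, Cd81, Cd82 and Cd151. Of 27 such protein-coding genes in RefSeq, 25 had a probe set annotated with a single symbol, of 18193 genes with one in all, and they held 56 of 34945 such probe sets. Cd63 and Tspan7 were not analysed here. The family was singled out with the difference between the lines already known, Tspan10 above all, so calls on this contrast describe the genes and support nothing further.

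The arrays compared pigmented mouse melanocytes, labelled wild type with the tyrosinase mutation corrected, with non-pigmented melanocytes that are homozygous for that mutation. Tyrosinase starts melanin synthesis. Both came from skin on a Balb/c background, both were grown in RPMI 1640 medium with FCS, 2-mercaptoethanol and the phorbol ester TPA, and each was measured on 2 arrays. The labels do not say whether a line is 1 clone or whether each array had a culture of its own. The p-values reflect the spread of these arrays alone, and that spread may be technical.

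Each array's values are probe set signals (intensities on a linear scale), and their medians were 126 to 130 in the pigmented and 99.7 to 111 in the non-pigmented line. The Gapdh 3′ to 5′ ratio, taken here as a sign of RNA integrity, was 0.864 and 16.8 in pigmented replicates 1 and 2, and 0.903 and 20.2 in non-pigmented replicates 1 and 2. Replicates 1 thus formed an intact pair and replicates 2 a pair with low 5′ signal, each with 1 array of either line. Of 9 melanocyte markers tested, 7 were called higher in the pigmented line and 0 lower (calls are defined below). Over all genes tested, 1.33% were called higher and 2.03% lower. The 2 others, Tyrp1 and Sox10, differed by 2.11 and 0.16 on the log2 scale and were not called. Of the 7 called, Kit and Ednrb had a non-pigmented mean below the filter (also given below), so they passed through the pigmented arrays. Of 6 Schwann cell or oligodendrocyte markers tested, 4 were called lower (Mbp, S100b, Sox2 and Pmp22), while Cnp (-0.77) and Mag (-0.20) were not called. The pigmented mean of Sox2 lay below the filter, so it passed through the non-pigmented arrays. The summed signal of the 7 such markers on the array was 1340 to 2496 in the pigmented and 19714 to 21784 in the non-pigmented line. In the non-pigmented arrays most of it came from Mbp (11562 and 3445) and S100b (5759 and 13314). Of 2 keratinocyte markers tested, Krt10 (-3.02) was called lower and Krt5 (0.96) was not called. The pigmented mean of Krt10 lay below the filter, so it passed through the non-pigmented arrays. Of the fibroblast markers 0 of 5 were called, and of the endothelial markers 0 of 1. Col1a2 differed by 2.11 (limma, adjusted p of 0.0766) and Lum by 0.12, while Col1a1, Col3a1 and Postn differed by -0.41, -1.61 and -0.92.

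Differences below are pigmented minus non-pigmented on the log2(signal + 16) scale, tested with limma over 12558 genes, and a gene is called at a Benjamini-Hochberg adjusted p under 0.05. A gene had to have a mean over the 4 arrays of at least 6.44, the 40th percentile of all probe sets. That left 22 of the 25 tetraspanin genes, with Tspan1, Tspan11 and Tspan33 too dim. In Tspan10 and Cd37 the non-pigmented mean alone lay below that value, so they passed through the pigmented arrays.

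Tetraspanin genes differed in both directions. Of the 22 tested, 3 were called (2 higher and 1 lower in the pigmented line), where 3.36% of all tested genes were called, 1.33% higher and 2.03% lower. The called genes were Tspan10 and Tspan5, higher, and Tspan15, lower, and all 3 belong to TspanC8. The absolute log2 difference reached 1 in 10 of the 22 (5 higher, 5 lower), where 20.2% of all genes did, 9.34% higher and 10.8% lower. Arrays of the lines did not overlap in 16 of the 22, with the pigmented arrays above in 6 and below in 10, where 43.9% of all genes did not overlap, 24.4% with the pigmented arrays above and 19.5% below. The median difference was -0.32, against 0.07 over all genes tested. Unadjusted p-values were under 0.05 for 9 of the 22, and for 13.8% of all genes tested.

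**Figure D1:**
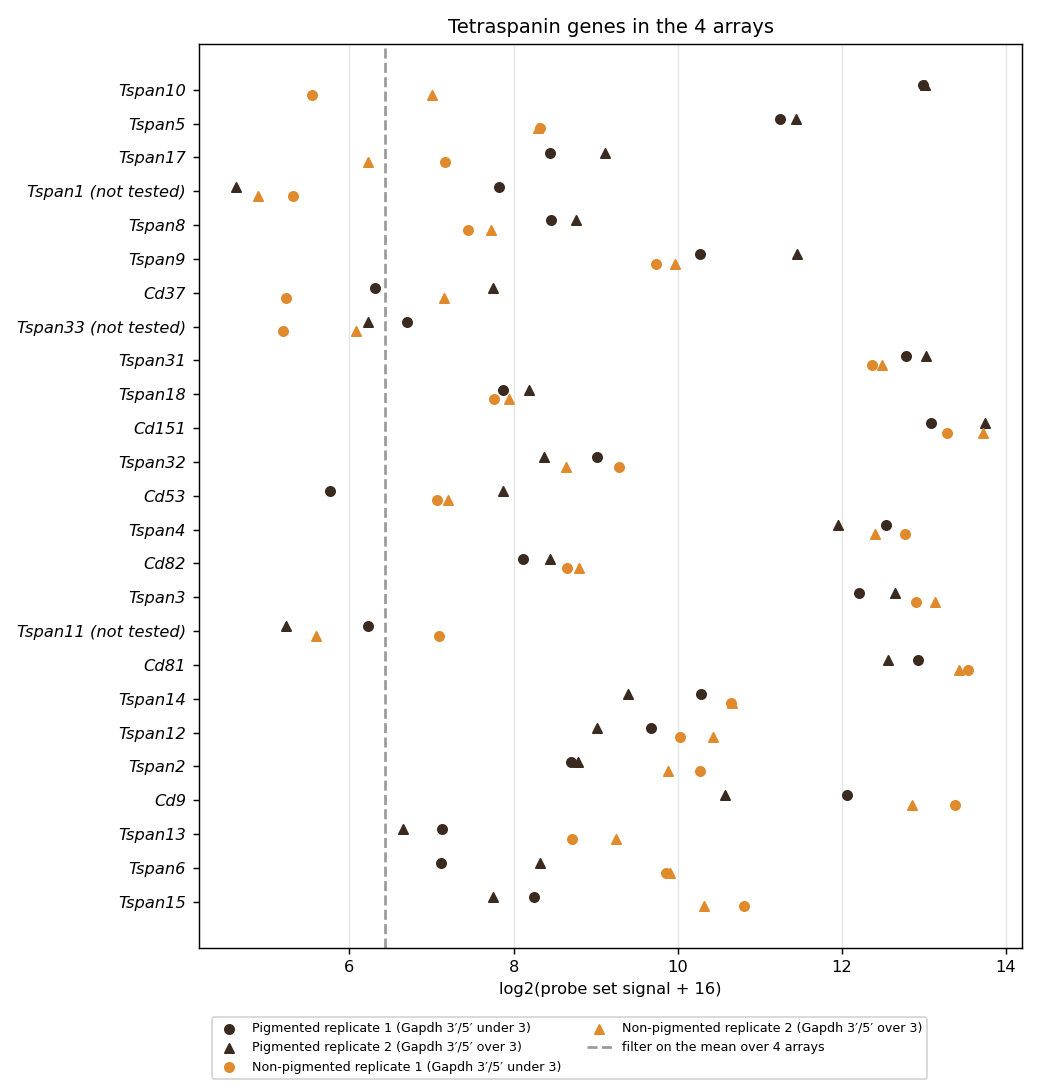
Values of the 25 tetraspanin genes on each of the 4 arrays, as log2(probe set signal + 16), ordered by the difference between the lines. Dark points are pigmented and orange points non-pigmented arrays, circles are replicates 1 (Gapdh 3′ to 5′ ratio under 3) and triangles replicates 2 (over 3), and the dashed line at 6.44 is the filter on the mean. The lines lie far apart in Tspan10, Tspan5 and Tspan15 and overlap in Cd151, Tspan18 and Tspan4.

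Promoters of the 3 called genes, as RefSeq gives them on GRCm38.p6, are shown to let their letters be set beside their opposite differences. Each run is the coding strand from 250 bases before to 50 after the annotated start. Capitals mark matches on either strand to CATGTG (the core of the M-box, a site bound by Mitf), to CACGTG (an E-box) or to TGACTCA (the AP-1 site through which phorbol esters are known to act). Tspan10 lies at chr11:120442381-120442680 (plus strand), Tspan5 at chr3:138741958-138742257 (plus strand) and Tspan15 at chr10:62231169-62231468 (minus strand).
Tspan10: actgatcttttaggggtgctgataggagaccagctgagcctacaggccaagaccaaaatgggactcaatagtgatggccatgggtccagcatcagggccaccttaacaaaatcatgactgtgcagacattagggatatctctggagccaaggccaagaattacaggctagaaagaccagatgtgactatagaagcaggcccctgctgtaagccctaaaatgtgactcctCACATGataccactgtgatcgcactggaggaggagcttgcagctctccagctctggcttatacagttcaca
Tspan5: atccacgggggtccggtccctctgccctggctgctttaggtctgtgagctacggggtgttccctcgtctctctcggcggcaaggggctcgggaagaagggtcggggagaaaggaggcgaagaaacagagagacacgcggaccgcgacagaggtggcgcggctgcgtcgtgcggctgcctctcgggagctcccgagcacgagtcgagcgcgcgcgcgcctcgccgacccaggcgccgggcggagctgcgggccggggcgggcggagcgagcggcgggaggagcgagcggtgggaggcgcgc
Tspan15: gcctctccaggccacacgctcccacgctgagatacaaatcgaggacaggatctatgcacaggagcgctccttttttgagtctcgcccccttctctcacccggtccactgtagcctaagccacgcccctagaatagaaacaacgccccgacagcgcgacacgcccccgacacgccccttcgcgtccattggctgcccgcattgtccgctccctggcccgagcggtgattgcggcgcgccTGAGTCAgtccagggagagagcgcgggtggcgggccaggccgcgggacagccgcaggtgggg
The Tspan10 promoter held 1 M-box core, on the minus strand, whose first printed base lies 21 bases before the start. The Tspan15 promoter held 1 AP-1 match, also on the minus strand, beginning 12 bases before the start. In the Tspan5 window none of the 3 motifs was found, and its bases were 73.3% G or C, against 66.3% for Tspan15, 49.7% for Tspan10 and a median of 52.7% over 32851 promoters. The M-box core was present in 14.2% of all promoters, CACGTG in 7.15% and the AP-1 site in 5.2%. Promoters were listed for 24 of the 25 genes, and the M-box core was found in 4 genes (Cd9, Tspan3, Tspan9 and Tspan10), CACGTG in 2 (Cd37 and Tspan4) and the AP-1 site in 2 (Tspan4 and Tspan15). These genes had 34 promoters, of which 11.8% held the M-box core and 5.88% each of the other motifs.

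Differences within the TspanC8 subgroup ran in both directions. It has 6 genes, of which 5 were tested, with 2 higher, 1 lower and 2 not called. Over all genes tested, 1.33% were called higher and 2.03% lower. Of the 2 higher, Tspan10 led to the choice of the family and passed the filter through the pigmented arrays, so the count is a description. Tspan10, also known as oculospanin for its expression in the eye, had a signal of 8081 and 8226 in pigmented replicates 1 and 2, against 30.8 and 112 in non-pigmented replicates 1 and 2. Both pigmented arrays were bright and close to each other, and both non-pigmented arrays were dim.
The log2 mean of Tspan10 was 13.00 ± 0.02 in the pigmented and 6.27 ± 1.03 in the non-pigmented line (SD, n = 2 each), a difference of 6.72, or 106-fold. That size depends on the pseudocount, at 5.99 with a pseudocount of 64 and 7.09 with 1, because the non-pigmented arrays are dim. No p is given for it, since this difference led to the choice of the family. The array titles hold digits read here as dates, 2 in all, each on 1 array of either line. The difference was 7.46 and 5.98 within the first and second date, and 7.44 in the intact pair and 6.01 in the pair with low 5′ signal.

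Tspan5, a TspanC8 member known from Notch signalling, had 2409 and 2753 in the pigmented arrays, against 304 and 297 in the non-pigmented arrays. The replicates of each line lay close together and the lines did not overlap. Its mean was 11.34 ± 0.14 in the pigmented and 8.31 ± 0.02 in the non-pigmented line (SD, n = 2 each), a difference of 3.03 ± 0.41 (SE), or 8.19-fold (limma, adjusted p of 0.0172). Its other probe set differed by 2.26 in the same direction. Differences within the dates were 3.11 and 2.95. Without non-pigmented replicate 1 the adjusted p by limma was 0.0749, and without non-pigmented replicate 2 it was 0.0869.

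Tspan15, which is known to favour ADAM10 cleavage of N-cadherin, had 287 and 200 in the pigmented arrays, against 1780 and 1266 in the non-pigmented arrays. Every pigmented array was dimmer than every non-pigmented one. The SD of its log2 values was 0.35 in the pigmented and 0.34 in the non-pigmented line (n = 2 each), and the gene fell by 2.57 ± 0.45 (SE) on the log2 scale, or 5.94-fold (limma, adjusted p of 0.0386). It fell by 3.06 and by 2.08 within the dates, and with the date as a block the adjusted p by limma was 0.0908. Without pigmented replicate 2, non-pigmented replicate 1 or non-pigmented replicate 2 the adjusted p was 0.0651, 0.179 and 0.0989.

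Tspan17 had 333 and 539 in the pigmented arrays, against 127 and 58.7 in the non-pigmented arrays. The lines did not overlap, but the difference of 2.09 ± 0.52 (SE) was not called (adjusted p of 0.117 by limma). Its other probe set gave a wider gap, with 422 and 1027 in the pigmented and 58.9 and 41.0 in the non-pigmented arrays, a difference of 3.37. With the mean of both probe sets the difference was 2.73 and the adjusted p 0.0451 by limma, and with a pseudocount of 64, where the second probe set stands for the gene, they were 2.68 and 0.0360. Under the other alternatives it was not called, with an adjusted p by limma of up to 0.464 (without non-pigmented replicate 2).

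Tspan14, another ADAM10 escort, had 1234 and 658 in the pigmented arrays, against 1595 and 1596 in the non-pigmented arrays. Its difference of -0.81 ± 0.48 (SE) was not called (adjusted p of 0.547 by limma). Tspan33, known from blood cells and the kidney, had 88.3 and 59.0 in the pigmented and 20.6 and 51.4 in the non-pigmented arrays and was not tested. The 5 tested members of the subgroup therefore had differences from -2.57 to 6.72, with 3 of them positive.

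**Figure D2:**
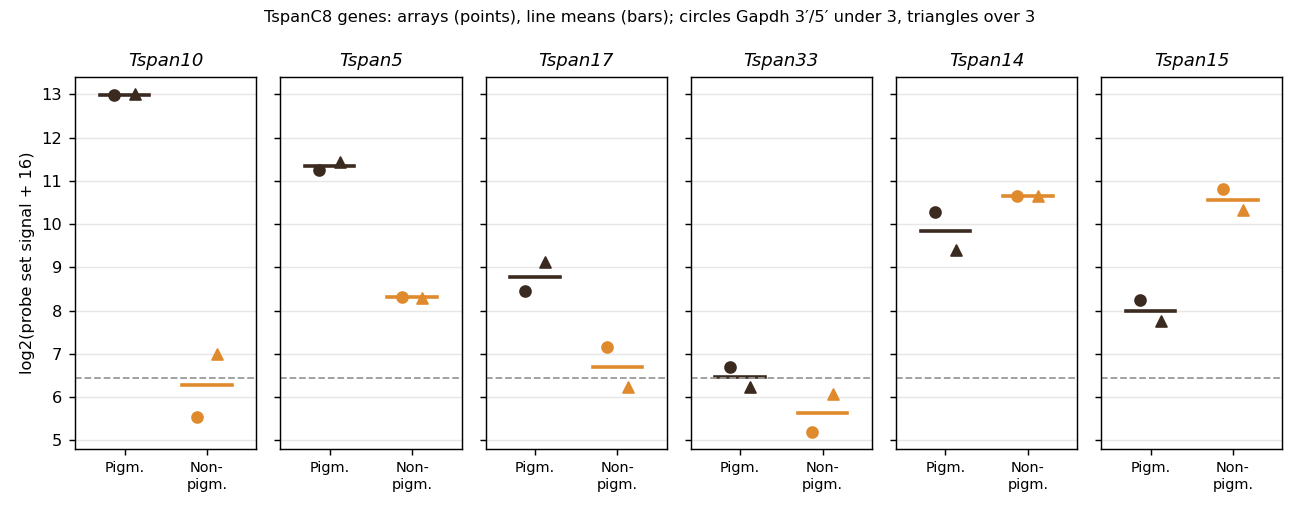
TspanC8 genes on the 4 arrays, as log2(probe set signal + 16), with the pigmented arrays left and the non-pigmented arrays right in each panel. Points are arrays, bars are line means and the dashed line is the filter at 6.44. Tspan10, Tspan5 and Tspan17 lie higher in the pigmented line and Tspan14 and Tspan15 lower, while Tspan33 has a mean below the filter.

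The protease that these proteins escort, Adam10, had 8131 and 16239 in the pigmented arrays, against 4630 and 7495 in the non-pigmented arrays. Its difference of 0.96 ± 0.46 (SE) was not called (adjusted p of 0.444 by limma). Adam17, a related shedding protease, had a difference of -0.995 ± 0.47 (SE) with an adjusted p of 0.449 by limma. Neither the array values nor these tests speak to protease activity.

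Among the tetraspanins that sit at the cell surface beside integrins and immunoglobulin proteins, none was called by limma, and 1 of the 4 in Cd9, Cd81, Cd82 and Cd151 had an unadjusted p under 0.05 (Cd9). Cd9, which is needed for sperm and egg fusion and is common on adherent cells, had 4258 and 1505 in the pigmented arrays, against 10654 and 7394 in the non-pigmented arrays. The lines did not overlap, and pigmented replicate 2 was the dimmest array. The difference was -1.80 ± 0.56 (SE), with an adjusted p of 0.209 by limma. Blocked on the integrity pair, the adjusted p by limma was 0.0316. The difference moved with the array left out. It was -2.55 without pigmented replicate 1 (limma, adjusted p of 0.0173) and -1.06 without pigmented replicate 2 (0.388), and without non-pigmented replicate 1 or 2 the adjusted p was 0.618 and 0.363. With the date as a block it was 0.304.

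Cd81, a partner of integrins and of the B cell receptor complex, had 7774 and 6015 in the pigmented arrays, against 11907 and 10978 in the non-pigmented arrays. All its pigmented values were lower, with a difference of -0.74 ± 0.31 (SE) and an adjusted p of 0.378 by limma. Cd82, known as a suppressor of metastasis, had 262 and 332 in the pigmented and 386 and 427 in the non-pigmented arrays. Its difference was -0.44 ± 0.41 (SE), with an adjusted p of 0.742 by limma.

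Cd151, which binds laminin-binding integrins, had 8700 and 13700 in the pigmented arrays, against 9916 and 13431 in the non-pigmented arrays. Its lines overlapped fully, with a difference of -0.08 ± 0.36 (SE) and an adjusted p of 0.957 by limma. Of its 6 probe sets, 5 had a negative difference, from -0.63 to -0.08, and 1 a positive difference of 0.93. Tspan4, also linked to integrins and to the retraction fibres of moving cells, had 5936 and 3941 in the pigmented and 6958 and 5382 in the non-pigmented arrays, a difference of -0.34 that was not called.

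Tspan6, Tspan13 and Tspan2 also had lower values in the pigmented line by at least 1 on the log2 scale without being called. Tspan6, an X-linked member known from the endosome route, had 123 and 303 in the pigmented arrays, against 910 and 945 in the non-pigmented arrays. The difference was -2.16 ± 0.53 (SE), with an adjusted p of 0.107 by limma. Its other probe set had 5.34 and 4.84 in the pigmented arrays, against 1052 and 880 in the non-pigmented arrays, a difference of -5.54. Both pigmented signals lay under the pseudocount of 16, which sets the size of that difference, at -7.31 with a pseudocount of 1 and -3.89 with 64.
Both Tspan6 probe sets therefore had the same direction, with the lines apart in each. With the mean of both the difference was -3.85 and the adjusted p 0.00813 by limma. For the probe set used, the adjusted p by limma was 0.0407 blocked on the integrity pair and 0.166 with the date as a block. Without pigmented replicate 1 or 2 it was 0.177 and 0.0180, and without non-pigmented replicate 1 or 2 it was 0.284 and 0.317.

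Tspan13, a small tetraspanin known by its old name NET-6, had 123 and 85.0 in the pigmented arrays, against 404 and 592 in the non-pigmented arrays. The difference was -2.09 ± 0.45 (SE), with an adjusted p of 0.0761 by limma, and its other probe set differed by -0.99. The adjusted p by limma was 0.0469 blocked on the integrity pair, 0.139 with the date as a block and 0.152 with no filter. Without pigmented replicate 1 or 2 it was 0.0464 and 0.124, and without non-pigmented replicate 1 or 2 it was 0.169 and 0.357.
Tspan2, a gene of myelinating oligodendrocytes, had 399 and 424 in the pigmented arrays, against 1215 and 930 in the non-pigmented arrays. Its 3 probe sets differed by -1.34, -1.52 and -1.35, and the adjusted p by limma was 0.213. It lay lower in the same line as the Schwann cell and oligodendrocyte markers, among them Mbp (-5.83) and Pmp22 (-2.79), both called, while Mag differed by -0.20 and was not called. The part of such cells in the Tspan2 value was not tested. In bulk RNA, fewer cells of a type and less RNA per cell cannot be told apart.

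**Figure D3:**
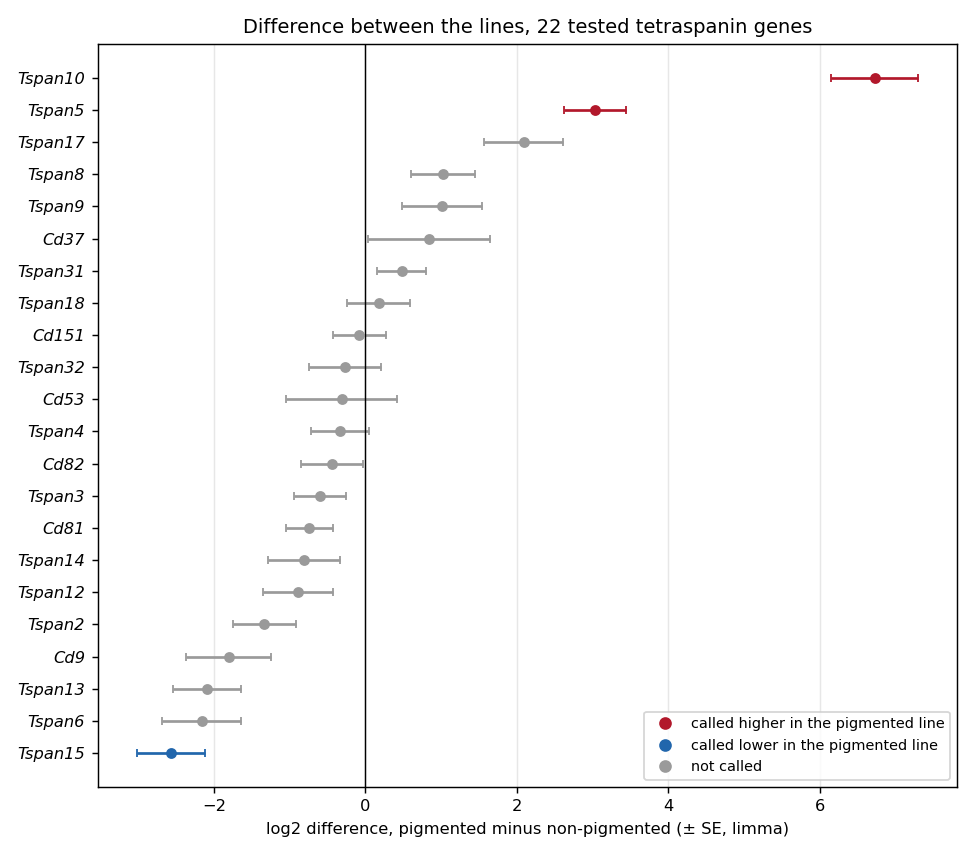
Log2 difference of the 22 tested tetraspanin genes, pigmented minus non-pigmented, with SE from limma as bars. Red marks genes called higher in the pigmented line, blue the gene called lower and grey genes not called. Differences span -2.57 (Tspan15) to 6.72 (Tspan10).

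Tspan8 and Tspan9 had higher values in the pigmented line by at least 1 on the log2 scale and were not called. Tspan8, known from epithelial tumours, had 336 and 416 in the pigmented arrays, against 158 and 196 in the non-pigmented arrays. Its difference was 1.03 ± 0.42 (SE), with an adjusted p of 0.355 by limma, while its second probe set above the filter differed by 0.01 and the 3 others were dim. Tspan9, a platelet tetraspanin, had 1215 and 2790 in the pigmented and 839 and 985 in the non-pigmented arrays, a difference of 1.01 ± 0.53 (SE) with an adjusted p of 0.497 by limma.

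The remaining tested genes differed by less than 1. Tspan3 had 4707 and 6389 in the pigmented arrays, against 7673 and 8988 in the non-pigmented arrays, a difference of -0.60. Tspan12, which helps Norrin signal through Fzd4 in retinal vessels, had 801 and 501 in the pigmented and 1031 and 1362 in the non-pigmented arrays, a difference of -0.89. Both had pigmented values below all non-pigmented ones, and neither was called. Tspan31, which lies beside the kinase gene Cdk4, differed by 0.48 with the pigmented arrays above, and Tspan18, a tetraspanin of endothelium, by 0.18 with overlapping arrays.

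Leukocyte tetraspanins gave no called difference. Cd37, of B cells, had 63.7 and 198 in the pigmented arrays, against 21.5 and 126 in the non-pigmented arrays. Cd53, a marker of most leukocytes, had 38.5 and 219 in the pigmented and 118 and 131 in the non-pigmented arrays, and its difference was -1.29 in the intact pair and 0.67 in the pair with low 5′ signal. Tspan32, of blood cells, differed by -0.27 on the probe set used and by -2.46 on a second one. Of 12 immune markers on the array, limma tested 6 and called 0, 1 of them having an unadjusted p below 0.05, and their summed signal was 1059 to 1604 in the pigmented and 1676 to 3347 in the non-pigmented line. Lyz2, of macrophages, had 481 and 184 in the pigmented arrays, against 800 and 2073 in the non-pigmented arrays. Without Lyz2 the sums overlapped, at 875 to 1123 in the pigmented and 876 to 1274 in the non-pigmented line. The B cell markers Cd79a and Ms4a1 went the other way, at 0.94 and 1.22, with the pigmented arrays above. Both had a non-pigmented mean below the filter, and Ms4a1 had that direction in 1 of 2 probe sets. Adgre1, Cd14 and Cd8a differed by -0.27, -0.11 and -0.42, with overlapping arrays. The pan-leukocyte marker Ptprc was below the filter.

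Agreement between probe sets was measured in the 10 genes with more than 1 probe set above the filter. In 8 of them every such probe set had the same sign, and Cd151 and Tspan31 were mixed. Sizes differed more than signs, as the values of Tspan6, Tspan17 and Tspan32 above show. For 8 genes, Tspan10 and Tspan15 included, a single probe set was all there was.

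**Figure D4:**
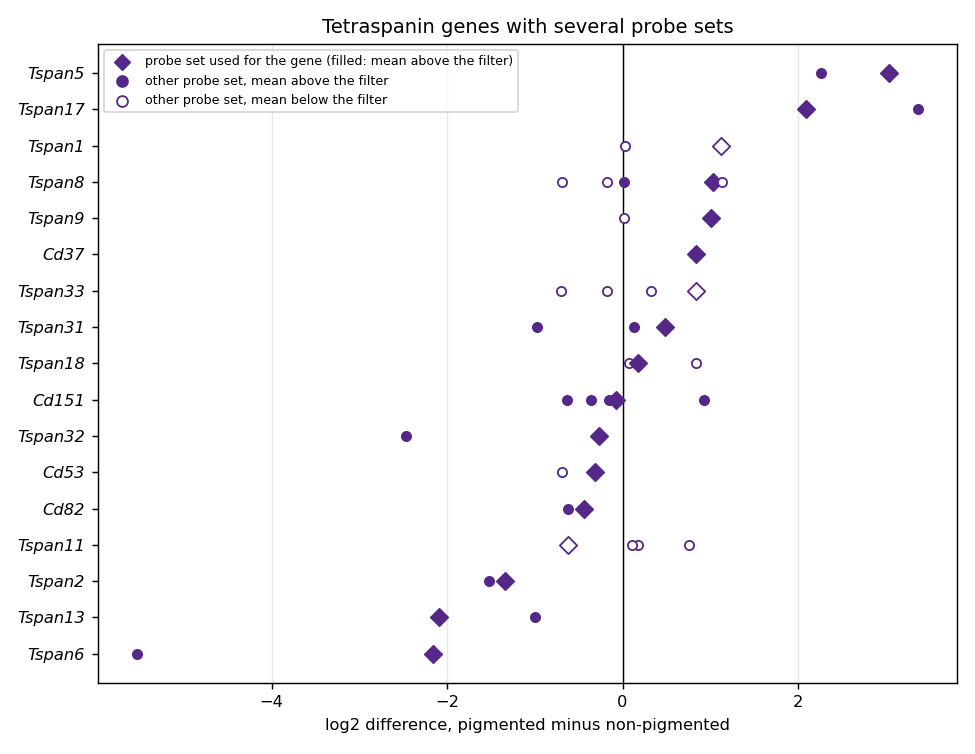
Log2 difference, pigmented minus non-pigmented, of each probe set of the 17 tetraspanin genes with more than 1. Diamonds are the probe sets used for the gene, circles the others, and open symbols have a mean below the filter. The probe sets of Tspan6 lie at -2.16 and -5.54 and those of Tspan17 at 2.09 and 3.37, while Cd151 straddles 0.

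Across the 22 genes, the sign of the difference was the same in both integrity pairs in 20 (90.9%), where 69.4% of all genes tested had the same sign, and in both dates in 16 (72.7%), where 50.8% did. Blocked on the integrity pair, 4 tetraspanin genes were called lower (Tspan15, Tspan6, Tspan13 and Cd9) and 2 higher (Tspan10 and Tspan5), while 7.04% of all genes were called, 4.32% lower and 2.72% higher. With the date as a block 0 were called lower by limma, while 2 were called higher, and 3.12% of all genes were called, 1.96% lower and 1.16% higher. The integrity pairs were known from earlier results of these data.

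Genes on lists drawn up around tetraspanin partners also moved in both directions, and a tie of each to a tetraspanin was not tested. Over 5 lists of partners and 2 of related proteins, 74 genes were tested, of which 9 rose and 6 fell in the pigmented line and 59 were not called. Thus 20.3% were called, where 3.36% of all genes tested were, 1.33% higher and 2.03% lower. Those shares over all genes apply beside each list below. These lists hold genes already known from earlier results to differ, so that count is a description. Kit, Mlana and Pmel, which rose, were also on the melanocyte marker list above. The median difference of the 74 was -0.03, against 0.07 over all genes tested. In the called genes Apoe, Bace2, Kit and Itga4 the non-pigmented mean lay below the filter, so they passed through the pigmented arrays. In Fgfr1 and Zdhhc2 the pigmented mean lay below it, so they passed through the non-pigmented arrays. Their calls describe genes that were let in by the line where they are high.

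Of 18 genes of the endosome route and its cargo, 4 rose and 14 were not called. Apoe, a lipid carrier that Cd63 helps to load onto vesicles of melanosome precursors, had 5145 and 2566 in the pigmented arrays, against 9.13 and 6.98 in the non-pigmented arrays. Pmel, the fibril protein of melanosomes, rose by 4.38 ± 0.36 (SE), with an adjusted p of 0.00596 by limma. Mlana and Rab27a, a GTPase that docks melanosomes and exosomes, rose by 2.98 and 3.26. The general sorting genes were tested and not called, with Sdcbp (syntenin, which binds Cd63) at 0.62 and Pdcd6ip at -0.72. Pdcd6ip had that direction in 2 of 5 probe sets.

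Of 14 receptors and growth factors, 3 rose and 3 fell. Kit and Met, receptors for stem cell factor and hepatocyte growth factor, rose by 5.66 ± 0.44 and 3.65 ± 0.37 (SE), and the gelatinase gene Mmp2 rose by 3.09. Fgfr1, with pigmented signals of 8.03 and 11.6 that lie under the pseudocount, fell by 6.61 ± 0.53 (SE), Tgfa fell by 3.82 ± 0.61 (SE) and Erbb3 fell by 2.28 ± 0.40 (SE). Hbegf, a growth factor whose membrane form binds Cd9, had 1004 and 432 in the pigmented and 3580 and 2059 in the non-pigmented arrays, a difference of -2.01 that was not called. Fzd4 and Lrp5, the receptors with which Tspan12 acts, differed by -1.52 and -3.38 and were not called. Lrp5 had 142 and 6.84 in the pigmented arrays, the latter under the pseudocount, against 573 and 650 in the non-pigmented arrays. Its pigmented mean lay below the filter, and its difference was -1.90 in the intact pair and -4.87 in the pair with low 5′ signal.

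Integrin and immunoglobulin partners gave 1 called gene in each direction among 11 tested. Itga3, the laminin receptor chain that binds Cd151, fell by 2.21 ± 0.42 (SE), with 190 and 236 in the pigmented arrays, against 1142 and 942 in the non-pigmented arrays. Itga4 rose by 2.49 ± 0.42 (SE), with 436 and 341 in the pigmented and 53.6 and 57.6 in the non-pigmented arrays. Igsf8, the direct partner of Cd9 and Cd81 called EWI-2, had 8919 and 8293 in the pigmented arrays, against 2953 and 2359 in the non-pigmented arrays. Its difference of 1.70 ± 0.35 (SE) ran opposite in sign to those of Cd9 and Cd81 and was not called (adjusted p of 0.0663 by limma). Itga6 and Mcam differed by -1.83 and -2.38 and were not called.

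In the list of ADAM proteases, secretases and substrates, 1 of 18 tested genes rose and 1 fell. Bace2, a protease that cleaves Pmel, had 7035 and 6537 in the pigmented arrays, against 81.3 and 33.4 in the non-pigmented arrays. L1cam, an adhesion protein shed by ADAM10, fell by 1.90 ± 0.35 (SE), with 2057 and 2395 in the pigmented arrays, against 7705 and 9001 in the non-pigmented arrays. Notch2 and Cx3cl1, both ADAM10 substrates, differed by -1.67 and -1.86 and were not called, with 1 of 2 probe sets of Notch2 and 1 of 4 of Cx3cl1 in that direction.
Among 9 enzymes that add or remove palmitate, a lipid anchor of tetraspanins, Zdhhc2, known to modify Cd9 and Cd151, fell by 4.36 ± 0.50 (SE) in 4 of 4 probe sets, with 82.6 and 32.7 in the pigmented arrays, against 1531 and 1296 in the non-pigmented arrays. Its adjusted p was 0.0102 by limma, but its pigmented mean lay below the filter and it passed through the non-pigmented arrays. The 8 others were not called, at differences from -0.91 to 0.64.

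With the date as a block, 4 of these 15 partner genes lost their call by limma, namely Itga3 (adjusted p of 0.136), Itga4 (0.0646), L1cam (0.178) and Erbb3 (0.112). Erbb3 had the stated direction in 1 of 2 probe sets, Itga3 in 2 of 3, Itga4 in 4 of 5 and Tgfa in 2 of 3. Leaving out either non-pigmented array ended the calls of Itga3, Itga4, L1cam, Erbb3, Mmp2 and Rab27a, leaving out non-pigmented replicate 2 ended that of Tgfa, and leaving out pigmented replicate 1 ended those of Itga3, Itga4 and L1cam. Fgfr1 was not called with probe sets ending in _at alone (limma, adjusted p of 0.385), nor Met with the mean of probe sets (0.0621). Over all alternatives, L1cam was called in 6 of 16, Itga3 in 8 of 16, Itga4 in 8 of 14, Erbb3 in 10 of 16, and Mmp2, Rab27a and Tgfa in 13 of 16 each.

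**Figure D5:**
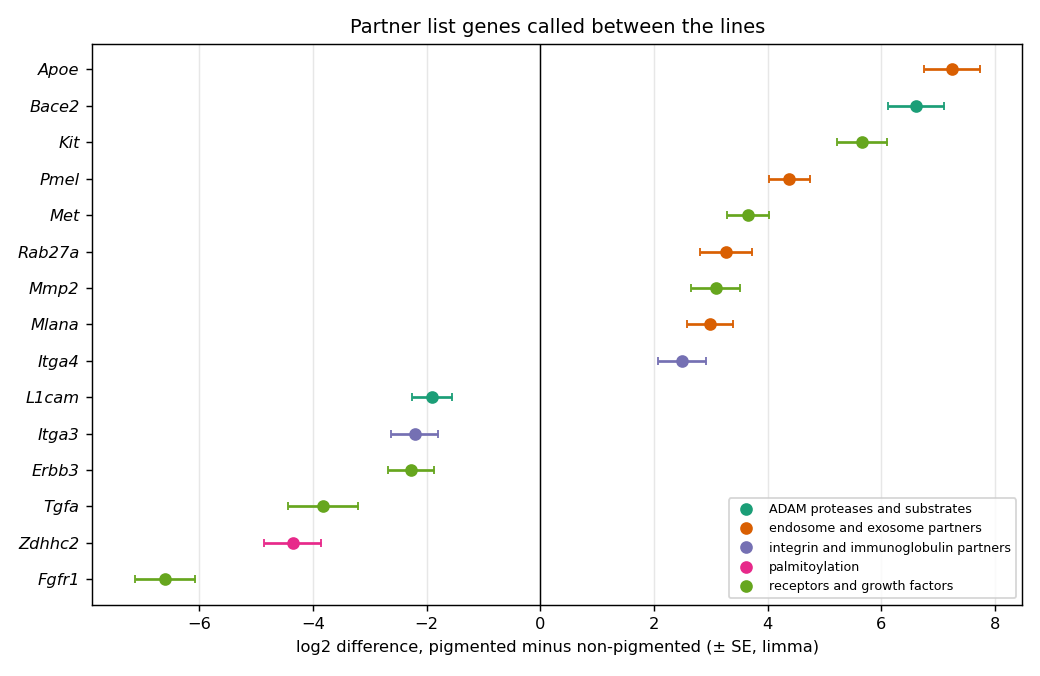
Log2 difference, pigmented minus non-pigmented, of the 15 called genes of the partner lists, with SE from limma as bars and colours for the lists. Apoe, Bace2 and Kit lie highest and Fgfr1, Zdhhc2 and Tgfa lowest.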

How the data were processed

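The files hold 1 deposited linear intensity per probe set for each of 4 Affymetrix arrays, made with Affymetrix Expression Console per the submitters' processing notes. Its version and summary algorithm are not given in the sources used here. Each deposited column had a mean of 500 after trimming 2% at either end, so each array had been scaled by the authors. No detection column was used, so dim signal and background could not be told apart.

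Of 45101 probe sets, 64 controls were left out, 34945 had 1 symbol (34741 matched RefSeq by Entrez number), 932 several and 9160 none. The probe set with the highest mean stood for each of 18193 genes, and 5635 genes below the 40th percentile were left out. Tests used limma 3.58.1 in R 4.3.3 (lmFit, eBayes with trend) on log2(signal + 16), with Benjamini-Hochberg adjustment. With 2 arrays a line, the number of arrays limits the precision, and the smallest exact permutation p is 0.333. The code was tested on simulated data, where it recovered 0% of log2 changes of 2 and 80.2% of changes of 4. At a size of 4, 4.75% of its calls were false. Each simulated run held 200 changed genes of a single size, a setting unlike the arrays, where L1cam (-1.90) and Erbb3 (-2.28) were called. The simulated shares therefore do not carry over to the arrays.

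Array titles hold digits that were read as 2 dates, an inference from their form, each shared by 1 array of either line. Deviations of same-date arrays from their line means correlated at -0.51 over genes, and those of the integrity pairs at 0.51, which with 2 arrays a line is the same value with its sign turned. The date was used as a pairing on that reading.

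Values are given for called genes, for those whose log2 difference reached 1 in size, and for Cd9, Cd81, Cd82 and Cd151. In each partner list called genes and up to 4 with the smallest p were to be named. Other genes were named after their values were seen. The genes and lists were chosen with earlier results of these data known.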

Additional observations from a re-analysis of the deposited data

How the results depend on the processing

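Under 16 alternatives (scaling, filter, pseudocount, variance model, probe set choice, both blocks and each array left out), 2 tetraspanin genes were called higher by limma, with 3 for a pseudocount of 64 or the mean of probe sets. The count was 1 to 2 without single arrays (1 without non-pigmented replicate 1 or 2). The count called lower was 1 and became 0 with no filter and with the date as a replicate block, 2 with the mean of probe sets, 4 blocked on the integrity pair, and 0 to 3 without single arrays. At an unadjusted p under 0.05 the count in either direction was 9 of 22, and 13.8% over all genes. Partner genes called lower, 6, were 2 with no filter, 2 with the mean of probe sets and 2 to 10 without single arrays, and those called higher, 9, were 6 to 10 throughout. The median of the tested tetraspanin genes, -0.32, was -0.48 with quantile normalization, -0.57 with centring on the median and -0.60 with the mean of probe sets. Centring moved the median of all genes by -0.24, and the tetraspanin median relative to all genes was then -0.39, as before. Of 345 values of single tetraspanin genes under the alternatives, 9 changed sign, all uncalled, in 6 genes (Cd151, Cd37, Cd53, Tspan18, Tspan31 and Tspan32), 7 lost a call and 9 gained one. The cause was not tested. A fit without 1 array assumes that the lone array varies like the other line. Signal over background limits Tspan1, Tspan11 and Tspan33, which the main fit did not test and for which no alternative was recorded.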

Other observations

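No call was made by limma among tetraspanins whose symbols fall outside the rule, and 0 of the 3 tested had an unadjusted p under 0.05. The uroplakin genes Upk1a and Upk1b, of the bladder lining, and Rom1, of photoreceptors, had differences of 0.22, -0.07 and -0.19 and were not called, and Prph2, also of photoreceptors, was too dim to be tested. Rom1 had 158 and 134 in the pigmented arrays, against 153 and 187 in the non-pigmented arrays. Of the L6 family, which shares old gene names with tetraspanins but is a separate family, Tm4sf1 alone was tested. It had 11871 and 1627 in the pigmented and 13624 and 8477 in the non-pigmented arrays, a difference of -1.28 that was not called.

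Tspan1, which was too dim to be tested, had pigmented arrays far apart, with 210 and 8.61 in the pigmented arrays, against 23.7 and 13.6 in the non-pigmented arrays.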
